A study of Mus musculus with 23 samples.

Results

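The comparison described here is diet within 1 inbred strain: testis RNA of C57BL/6J mice on a diet with 44% fat against testis RNA of the same strain on a diet with 10% fat. The members are the 8 libraries, of 23 in the series, whose titles give testis, C57BL/6J and either the 44% or the 10% diet with fiber, 4 libraries on each diet. All were from male mice of wild-type genotype that went onto the diets at 6 weeks of age and were sampled at 16 weeks. The 10% diet was the control, and the 44% diet was rich in fat and sugar, so fat and sugar changed together. The labels name no drug, transgene or other treatment. They do not say whether each library came from a different animal. The p-values below therefore measure the spread between libraries within groups, pooled over the 23 of the series. The study, on models of type 2 diabetes, holds 2 further strains, whose libraries entered only the gene filter, the scaling and the estimate of the spread.

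Testis RNA differed little between the diets in this strain. Of 22873 genes tested, 2 passed an adjusted p of 0.05, Fam205a2 and Fam205a3, both higher on 44% fat. They were 2 copies of 1 transcript with the same counts. That transcript also matched a stretch of the Fam205a4 transcript with 0 edits. With each set of identical gene rows tested once, the adjusted p of Fam205a2 by edgeR's quasi-likelihood test was 0.0547. With Fam205a2 and Fam205a3 summed it was 0.0312. Summed over Fam205a2, Fam205a3 and Fam205a4, the log2 fold change was 0.08 (SE 0.05). The part of the division of reads among the copies in the difference was not tested. List medians of spermatocyte, spermatid and Sertoli cell genes lay within 0.05 of 0 on the log2 scale. The lower values on 44% fat among genes of testicular steroid and sterol synthesis, with Cyp17a1, Cyp11a1 and Fdps as examples, and the higher value of the leptin receptor gene Lepr did not pass the adjustment.

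Most RNA of an adult testis comes from germ cells, which develop from spermatogonia through meiotic spermatocytes to round and elongating spermatids while resting against Sertoli cells. Leydig cells lie between the tubules and turn cholesterol into testosterone under the control of luteinising hormone: Star carries cholesterol into mitochondria, Cyp11a1 cleaves its side chain, and Cyp17a1, the 3-beta-hydroxysteroid dehydrogenases and Hsd17b3 complete the route. Leptin and insulin report on energy stores and are known to act on the reproductive axis, which is one reason that diet-induced obesity is studied in males.

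The libraries held between 21.9 and 38.4 M estimated counts (M, 1e+06), with 10% fat replicate 4 the shallowest and the other 7 at 33.2 M or more. All 12 pairs of replicates differed by more than counting error, with a chi-square per degree of freedom between 3.44 and 11. On the first principal component of genes with a mean of at least 1 CPM (counts per 1e+06, scaled between libraries by TMM), which held 26% of the variance, the 10% fat libraries ran from -14.8 to 22 and enclosed the 44% fat libraries, which ran from -10.4 to 4.31. The diets also overlapped on the next 2 components. On the first component, 10% fat replicates 1 and 2 lay at -13.7 and -14.8, and replicates 3 and 4 at 8.13 and 22. By the ID numbers in the sample titles, described below, replicates 3 and 4 of each diet belong to the third of 3 runs. On 44% fat, replicates 1 to 4 lay at 1.77, 4.31, 2.67 and -10.4. The part of the run in the split of the controls was not tested. A pair of 10% fat libraries stood apart: replicate 4 lay at 22 on the first component, and replicate 2 held Muc5b and Crisp1 transcripts that the others lacked or held at a low level. Defining testis transcripts were abundant in all 8 libraries, with the spermatid protamine gene Prm1 between 1250 and 1530 CPM.

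The size of the difference was small across the transcriptome. Among the 17078 genes with a mean of at least 1 CPM, the median size of the log2 fold change (44% minus 10% fat) was 0.05, its median standard error (SE) was 0.09, and 97.5% of genes differed by less than 1.25-fold. A 95% interval lying wholly within 1.5-fold in either direction was found for 15467 of these genes (90.6%), and one within 2-fold for 16926 (99.1%). Precision followed abundance: intervals lay within 1.5-fold for 2400 of 2404 genes at 100 CPM or more, for 7527 of 7551 genes between 10 and 100 CPM, and for 5540 of 7123 genes between 1 and 10 CPM. The point estimate reached 1.5-fold for 51 of the 17078 genes, 25 of them higher and 26 lower on 44% fat. It reached 2-fold for 7, which were Crisp1, Muc5b, Zbed6, Gm5884, Gm26699 and 2 genes with clone names only, and none of the 7 passed the adjustment.

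Counts by direction were balanced. The share of all genes tested with adjusted p under 0.05 by edgeR's quasi-likelihood test with Benjamini-Hochberg adjustment was 0.00874% higher and 0% lower on 44% fat. At an unadjusted p under 0.05, 297 genes (1.30%) were higher and 373 (1.63%) were lower, 2.93% in all. The 4 libraries of one diet lay wholly above those of the other in 229 genes (1.00%) that were higher and 250 (1.09%) that were lower on 44% fat. The median log2 fold change of all genes tested was -0.00, with 48.6% of genes above 0 and 51.3% below. Every gene other than Fam205a2 and Fam205a3 had an adjusted p of 1 by the same test.

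**Figure D1:**
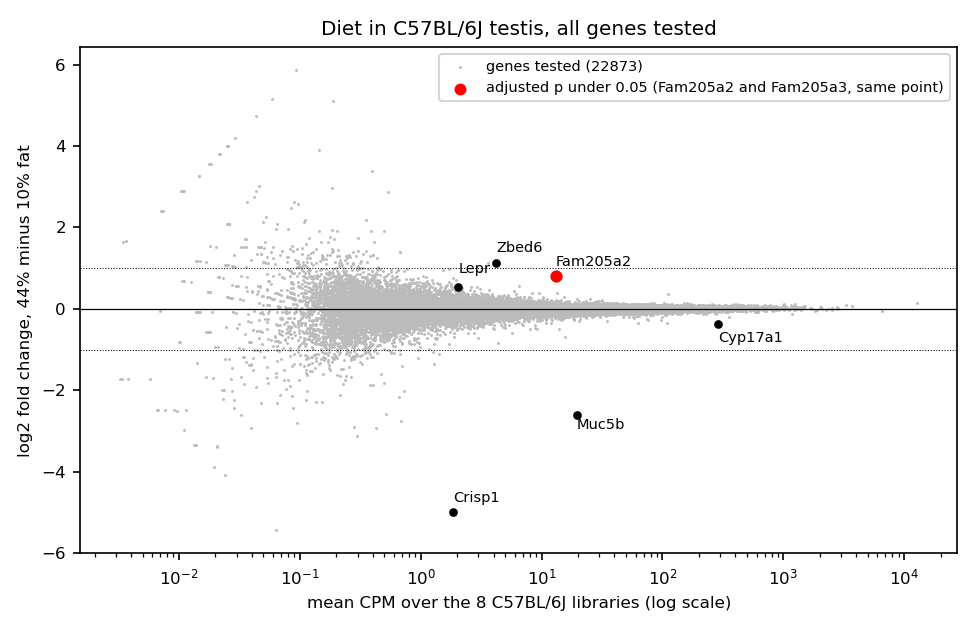
Mean CPM over the 8 C57BL/6J libraries (log axis) against the log2 fold change, 44% minus 10% fat, for the 22873 genes tested; dotted lines mark 2-fold. The cloud narrows with abundance, the red point is Fam205a2 with Fam205a3 beneath it at 0.82, and Muc5b and Crisp1, far below the cloud, each have their highest value in 10% fat replicate 2.

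Fam205a2 and Fam205a3, members of a set of near-identical copies on chromosome 4, were the only genes that passed. On GRCm38, Fam205a2 lies at chr4:42522580-42528175 on the minus strand and Fam205a3 at chr4:42318334-42323929 on the plus strand, between Fam205a4 at chr4:41966058-41971856 (plus) and Fam205a1 at chr4:42848071-42853888 (minus). The reference transcripts of Fam205a2 and Fam205a3, each 3927 bases long, were identical, and both matched a stretch of the 4130-base Fam205a4 transcript with 0 edits. The Fam205a1 transcript, 4146 bases long, differed from that of Fam205a2 by 45 edits (98.9% identity). The copies resemble each other upstream of the gene as well, as the start regions of Fam205a1 and Fam205a2, the 2 copies listed in the promoter table, show. They are printed from RefSeq on GRCm38.p6, from 250 bases before to 50 bases after each RefSeq start. Read 5′ to 3′ on the minus strand, they lie at chr4:42853839-42854138 and chr4:42528188-42528487. The Fam205a2 window lies wholly upstream of the gene position given above, while the Fam205a1 window includes the first bases of its gene. Capitals mark bases with no identical partner in the other window.
Fam205a1: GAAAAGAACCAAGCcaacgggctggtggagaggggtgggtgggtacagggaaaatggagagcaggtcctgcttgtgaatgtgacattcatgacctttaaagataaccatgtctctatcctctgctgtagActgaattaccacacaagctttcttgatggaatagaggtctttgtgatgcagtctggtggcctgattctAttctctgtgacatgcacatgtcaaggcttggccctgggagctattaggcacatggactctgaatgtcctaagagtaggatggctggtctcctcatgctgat
Fam205a2: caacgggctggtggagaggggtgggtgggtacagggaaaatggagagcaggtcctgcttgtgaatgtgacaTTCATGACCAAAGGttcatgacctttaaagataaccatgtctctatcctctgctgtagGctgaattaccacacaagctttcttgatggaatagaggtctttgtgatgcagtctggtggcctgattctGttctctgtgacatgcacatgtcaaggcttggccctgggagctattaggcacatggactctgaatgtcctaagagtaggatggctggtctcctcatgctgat
Of 286 aligned base pairs, 284 were identical and 2 differed, and 16 bases of each window are in capitals.

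On 10% fat, Fam205a2 stood at 9.31, 10.7, 9.85 and 7.9 CPM in replicates 1 to 4, and on 44% fat at 18.8, 19.5, 12.7 and 16 CPM. Fam205a3 had the same count in every library, so the deposited table carries 1 measurement under 2 names. Every 44% fat library lay above every 10% fat library, with 44% fat replicate 3 the nearest to the controls. The means were 9.44 ± 1.17 and 16.7 ± 3.11 CPM (SD, n = 4 each), a 1.76-fold difference with a log2 fold change of 0.82 (SE 0.14, 95% interval 0.53 to 1.10) and an adjusted p of 0.0283 by edgeR's quasi-likelihood test. ID numbers in the sample titles fall into 3 runs, which no label calls batches, and each run holds both diets of this strain. Because the diets did not overlap, Fam205a2 had to stand higher on 44% fat in each run, which adds no support. The first and second runs held 1 library per diet, at 18.8 against 9.31 CPM and 19.5 against 10.7 CPM. Means in the third were 14.3 against 8.87 CPM.

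The other 2 copies overlapped between the diets. Fam205a1 stood at 72.4 ± 1.91 CPM on 10% fat and 77.4 ± 8.06 CPM on 44% fat (log2 fold change 0.10, 95% interval -0.10 to 0.29), and Fam205a4 at 104 ± 5.99 and 96 ± 16.3 CPM (log2 fold change -0.11, 95% interval -0.28 to 0.06). By library, Fam205a4 had 111, 99.4, 106 and 98.3 CPM on 10% fat and 86.3, 84.4, 120 and 93.6 CPM on 44% fat. Its order of libraries was the reverse of that of Fam205a2 on 44% fat, but not on 10% fat. In the ID runs Fam205a4 was lower on 44% fat in the first and second, and higher in the third (means 107 against 102 CPM). Summed over the 4 copies, the libraries held 205, 194, 197 and 185 CPM on 10% fat and 191, 199, 231 and 207 CPM on 44% fat. These sums overlapped, and their log2 fold change was 0.08 (SE 0.05, 95% interval -0.02 to 0.19). Summed over Fam205a2, Fam205a3 and Fam205a4 only, the log2 fold change was also 0.08 (SE 0.05, 95% interval -0.03 to 0.19). Fam205a2 and Fam205a3 together made up 8.54% to 11% of the 4-copy sum on 10% fat and 11% to 19.7% on 44% fat. At that share a difference in these 2 names moves the sum little, so a difference in them alone and a different division of reads among the copies cannot be told apart from the sums.

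The adjusted p of Fam205a2 crossed the threshold in several alternatives. It ran from 1.83e-05 by DESeq2's Wald test to 0.412 by edgeR without 10% fat replicates 2 and 4. With 1 library left out at a time, edgeR gave 0.00253 to 0.307. With each set of identical gene rows tested once, the adjusted p of Fam205a2 was 0.0547 and no gene passed. With Fam205a2 and Fam205a3 summed into 1 gene it was 0.0312. No gene passed when any 1 of 10% fat replicates 1, 3 and 4 or 44% fat replicates 1, 2 and 4 was left out, or when the 8 libraries were fitted alone, where the adjusted p of Fam205a2 was 0.0644. Its log2 fold change ran from 0.735 to 0.927 with 1 library left out at a time and was 0.82 in the 8 libraries alone. No source used here says how reads were divided among these copies, and the part of that division in the difference was not tested.

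**Figure D2:**
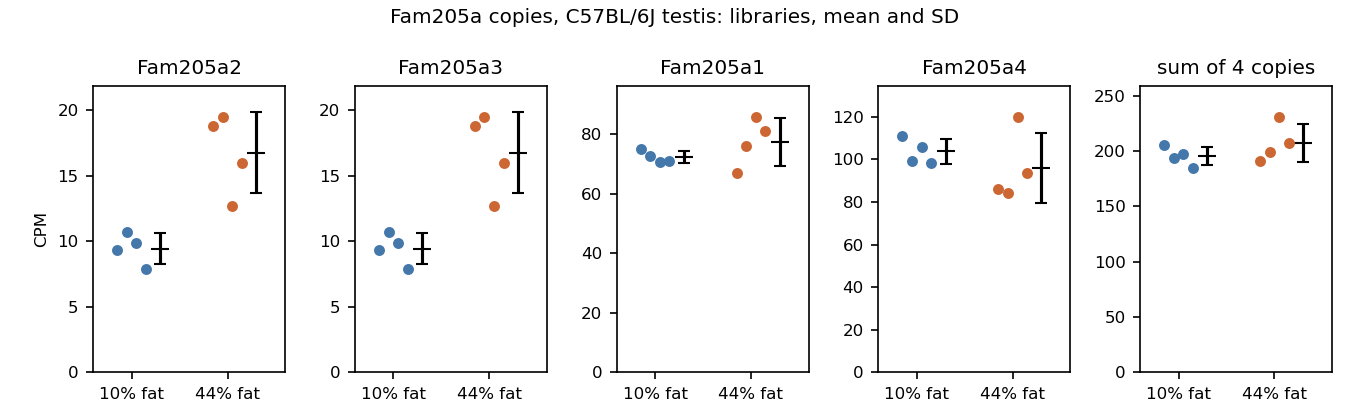
CPM of the Fam205a copies and of their sum in each of the 4 libraries per diet (points, blue 10% fat and orange 44% fat, replicates 1 to 4 from left to right), with mean and SD (bars); every axis starts at 0 and each panel has its own scale. Fam205a2 and Fam205a3 show the same points, higher on 44% fat, while Fam205a1, Fam205a4 and the sum overlap between diets.

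Since fewer than 5 genes passed in either direction, 5 genes per direction are described, although none beyond the 2 copies passed. They had the smallest p among official symbols averaging 1 CPM or more. The other 3 on the higher side were Lrrc4b, which encodes a synaptic adhesion protein, Nt5dc2, a gene of the 5′-nucleotidase domain family, and Bhlhe41, a repressor of the circadian clock. Lrrc4b stood at 0.811, 0.803, 0.642 and 0.735 CPM on 10% fat and 1.1, 1.55, 1.77 and 0.899 CPM on 44% fat. Its 4 libraries on 44% fat lay above all controls, with replicate 4 close to them (log2 fold change 0.82, SE 0.24, unadjusted p 0.00233). Nt5dc2 rested at 5.01 ± 0.72 and 6.84 ± 1.24 CPM (log2 fold change 0.44), and Bhlhe41 at 2.12 ± 0.19 and 3.07 ± 0.72 CPM (log2 fold change 0.55). Both overlapped between the diets, Nt5dc2 through 44% fat replicate 2 and Bhlhe41 through 44% fat replicate 3.

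On the lower side the smallest p among these symbols belonged to Muc5b, a gel-forming mucin of secretory epithelia, and it came from 1 control library. Muc5b stood at 5.02, 119, 5.23 and 4.82 CPM on 10% fat and 6.58, 5.35, 5.13 and 5.25 CPM on 44% fat. Only 10% fat replicate 2 was high, and the log2 fold change of -2.61 became 0.15 without it. Aggf1, a gene of an angiogenic factor, stood at 35.9, 35, 35.1 and 38.7 CPM on 10% fat and 32.2, 32.9, 33 and 30.7 CPM on 44% fat, with no overlap and a log2 fold change of -0.17 (SE 0.05, unadjusted p 0.00221). The light-chain gene Dynlrb1 of cytoplasmic dynein (10.6 ± 0.85 and 8.7 ± 0.47 CPM) and the centrin gene Cetn2 (6.13 ± 0.80 and 4.65 ± 0.10 CPM) also had no overlap, at log2 fold changes of -0.29 and -0.39. Clec3b, which encodes tetranectin, stood at 2.31 ± 0.40 and 1.43 ± 0.40 CPM (log2 fold change -0.69), and 44% fat replicate 3 reached into the control range.

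**Figure D3:**
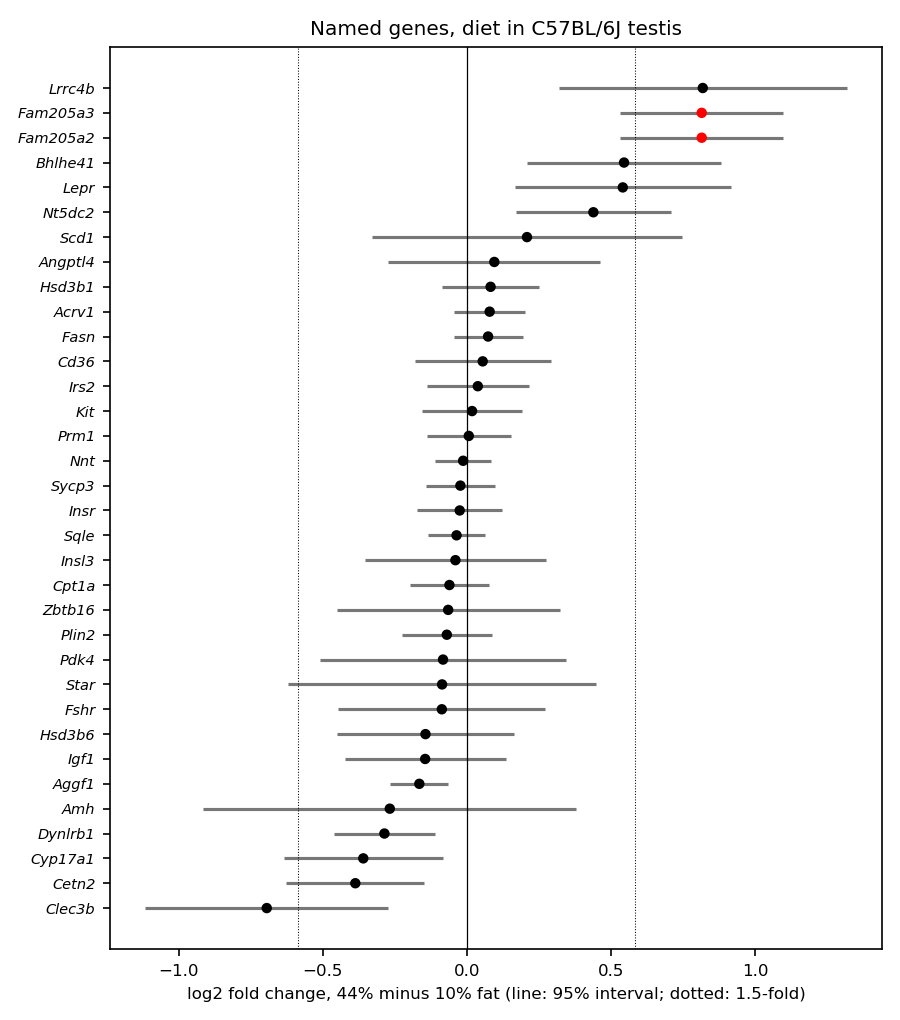
Log2 fold change, 44% minus 10% fat (points), with 95% interval (lines). Shown are the genes with the smallest p per direction among official symbols averaging 1 CPM or more, without Muc5b. A set of genes described whatever their p is added. Dotted lines mark 1.5-fold and red points passed the adjusted threshold. Most intervals span 0, and those of Sqle, Nnt, Sycp3 and Fasn are among the narrow ones.

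Across 37 lists of cell type and pathway genes, 798 different genes could be tested. Members named below, other than those described whatever their p, were chosen after their values were seen. None passed the adjusted threshold, against 0.00874% of all genes, and 29 (3.63%) had an unadjusted p under 0.05, against 2.93% of all genes. Median log2 fold changes of the lists lay between -0.17 and 0.12, and 674 of the 798 had 95% intervals within 1.5-fold. For each list a level per library was computed, the mean log2 CPM of its tested members minus the mean over the 8 libraries. In 36 of the 37 lists the levels of the diets overlapped.

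**Figure D4:**
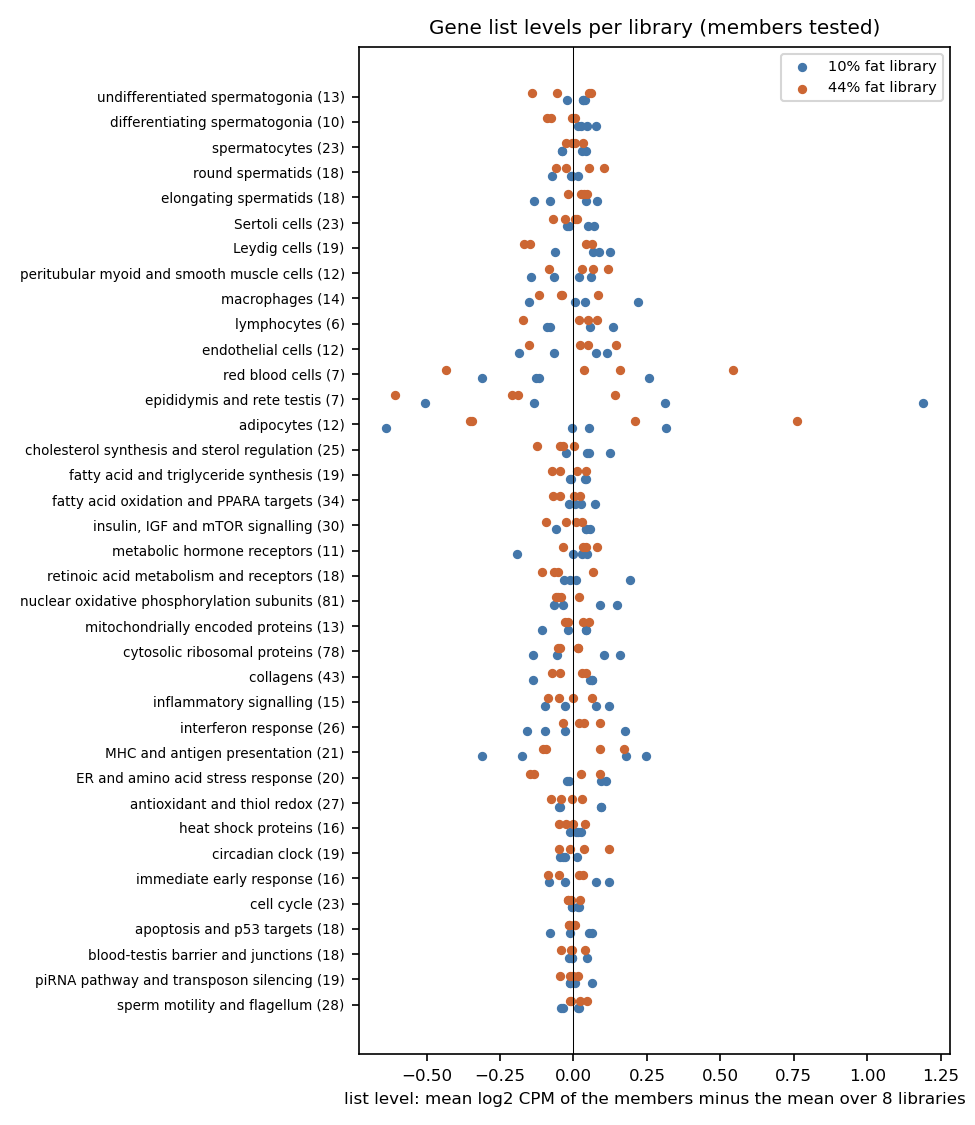
Level of each gene list in the 4 libraries on 10% fat (blue) and the 4 on 44% fat (orange), on a log2 scale relative to the mean of all 8; the number of tested members is in parentheses. Levels of the diets overlap in every list except differentiating spermatogonia, and the spread is widest for the lists of red blood cells, epididymis and adipocytes.

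Genes of steroid synthesis stood lower on 44% fat at 2 of the main steps, and neither difference passed the adjustment. Cyp17a1, the lyase on the way to androgens, stood at 315, 341, 344 and 284 CPM on 10% fat and 260, 186, 288 and 268 CPM on 44% fat. Control replicates 1 to 3 lay above all 44% fat libraries, while control replicate 4 was just below 44% fat replicate 3. The means were 321 ± 28.1 and 250 ± 44.7 CPM (SD, n = 4 each), a log2 fold change of -0.36 (SE 0.13, 95% interval -0.64 to -0.08, unadjusted p 0.0123). In each ID run the value on 44% fat was the lower, 260 against 315 CPM, 186 against 341 CPM and means of 278 against 314 CPM.

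Cyp11a1, the side-chain cleavage enzyme that starts the route, stood at 125, 126, 122 and 116 CPM on 10% fat and 103, 77.7, 100 and 106 CPM on 44% fat. All 4 libraries on 44% fat lay below all controls, and the log2 fold change was -0.34 (SE 0.16, unadjusted p 0.0459). Without 44% fat replicate 2, the lowest library for both genes, the log2 fold changes were -0.24 for Cyp17a1 (unadjusted p 0.0789) and -0.25 for Cyp11a1 (unadjusted p 0.161). With the 8 libraries fitted alone, edgeR's quasi-likelihood test gave an unadjusted p of 0.00283 for Cyp17a1 and 5.12e-04 for Cyp11a1. Neither gene passed there, at adjusted p of 0.999 and 0.963.

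The other steps of the route differed less. Star stood at 91.3, 84.5, 118 and 73.5 CPM on 10% fat and 105, 47.5, 88.6 and 105 CPM on 44% fat. The lowest value and 2 of the highest 3 were on 44% fat, and the interval of its log2 fold change was wide (-0.09, 95% interval -0.62 to 0.45). Hsd3b1 (57.7 ± 8.67 and 60.8 ± 4.95 CPM) and Hsd3b6 (87.4 ± 19.5 and 79.4 ± 18.7 CPM), both 3-beta-hydroxysteroid dehydrogenases, overlapped, as did Hsd17b3 (means 19.5 and 18.7 CPM), which makes testosterone. Lhcgr, the receptor for luteinising hormone, had means of 8.6 and 7.37 CPM (log2 fold change -0.23, unadjusted p 0.11), and Prlr, the prolactin receptor gene, had means of 62.1 and 53.5 CPM (log2 fold change -0.22, unadjusted p 0.0254), which became -0.12 (unadjusted p 0.196) without 10% fat replicate 3. Insl3, the Leydig cell hormone of testicular descent, stood at 139 ± 10.1 and 135 ± 9.9 CPM with a log2 fold change of -0.04 (95% interval -0.35 to 0.27).

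Taken as a list, 19 of 20 Leydig cell genes were tested. Of these, 14 lay below 0 and 5 above, beside 51.3% of all genes below 0. An unadjusted p under 0.05 was found for 3, all lower, against 1.63% of all genes lower. There was 1, Cyp11a1, lower with no overlap, against 1.09% of all genes. The median log2 fold change was -0.09, beside -0.00 over all genes, and moved to -0.06 without 44% fat replicate 3, -0.14 without 10% fat replicate 4 and -0.15 without 44% fat replicate 4. Levels per library were 0.13, 0.07, 0.09 and -0.06 on 10% fat and 0.04, -0.17, -0.15 and 0.06 on 44% fat. Replicates 2 and 3 on 44% fat were the lowest, and replicates 1 and 4 on that diet lay among the controls. In bulk tissue, fewer cells of a type and less RNA per cell cannot be told apart, and the part of Leydig cell number in the values of Cyp17a1 and Cyp11a1 was not tested.

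**Figure D5:**
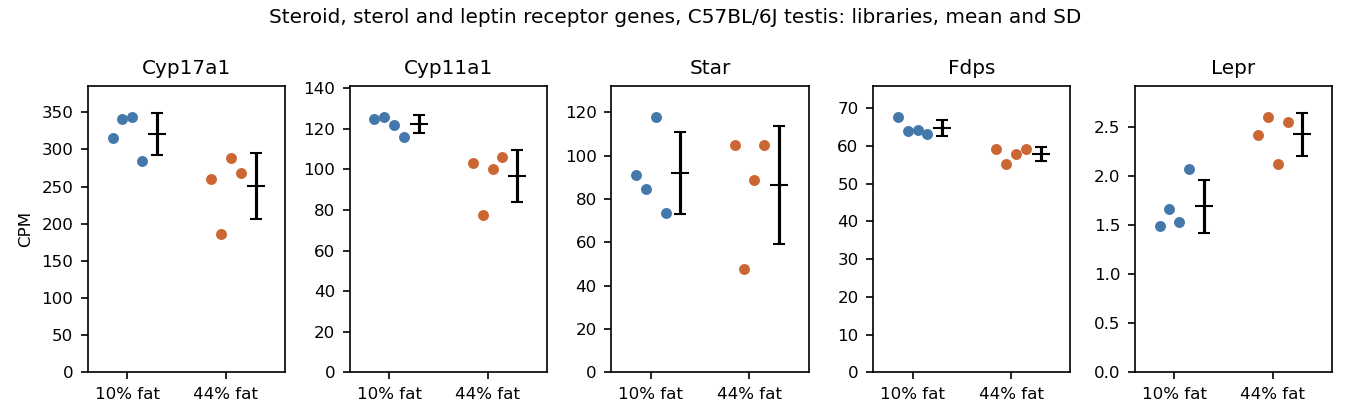
CPM of Cyp17a1, Cyp11a1, Star, Fdps and Lepr in each library (points, blue 10% fat and orange 44% fat, replicates 1 to 4 from left to right) with mean and SD (bars), axes starting at 0 with a scale per panel. Cyp11a1 and Fdps are lower and Lepr is higher on 44% fat with no overlap, while Cyp17a1 and Star overlap, and 44% fat replicate 2 is the lowest library for Star, Cyp17a1 and Cyp11a1.

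Most genes of cholesterol synthesis had values slightly below 0. Of 25 tested, 21 lay below 0 and 4 above, beside 51.3% of all genes below 0, with a median log2 fold change of -0.09, and none passed. Sqle, the squalene epoxidase gene, was close to level at 122, 128, 124 and 130 CPM on 10% fat and 116, 132, 121 and 121 CPM on 44% fat (-0.04, 95% interval -0.14 to 0.06). Srebf2, the transcription factor of the pathway, had means of 27.4 and 27.5 CPM.

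Among the 21 members below 0 were Fdps, Ebp, Dhcr7 and Hsd17b7. Fdps, which makes farnesyl diphosphate, stood at 67.7, 64, 64.1 and 63.1 CPM on 10% fat and 59.1, 55.1, 57.8 and 59.1 CPM on 44% fat. The diets were fully apart in narrow groups, with a log2 fold change of -0.16 (SE 0.05, unadjusted p 0.00424). Ebp, a sterol isomerase, stood at 11, 10.6, 11.8 and 10 CPM on 10% fat and 9.51, 9.18, 9.59 and 9.23 CPM on 44% fat, again with no overlap (log2 fold change -0.21). Hsd17b7, a sterol ketoreductase, had means of 7.94 and 6.43 CPM with no overlap (log2 fold change -0.30), and Dhcr7, the last enzyme of the route to cholesterol, had means of 20.2 and 16.8 CPM with overlap (log2 fold change -0.27). With 3 of 25 members lower without overlap, against 1.09% of all genes, the list levels still overlapped, from -0.02 to 0.12 on 10% fat and from -0.12 to 0.00 on 44% fat.

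Fatty acid synthesis genes showed no lean, with 9 of 19 above 0, 10 below and a median of -0.00. Fasn, the fatty acid synthase gene, stood at 143 ± 6.9 and 150 ± 10.7 CPM (log2 fold change 0.07, 95% interval -0.05 to 0.19). Scd1, the stearoyl-CoA desaturase gene, stood at 26.9, 32.5, 24.7 and 34.4 CPM on 10% fat and 28.2, 31.2, 21.8 and 55.3 CPM on 44% fat. Only 44% fat replicate 4 was outside the control range upward, and without it the log2 fold change of 0.21 became -0.13. That library also had the highest adipocyte level of the 8, at 0.76, and the part of fat tissue in its Scd1 value was not tested. Among desaturases of polyunsaturated fatty acids, Fads1 stood at 82.3 ± 7.3 and 68.4 ± 9.09 CPM (log2 fold change -0.27, unadjusted p 0.0361) and Fads2 had means of 108 and 88.6 CPM (-0.28, unadjusted p 0.0558), both with overlap.

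Genes of fatty acid oxidation and targets of the lipid sensor PPARA, which a diet rich in fat raises in several other organs, showed no called member among 34, with 10 above 0, 24 below and a median of -0.06. Cpt1a, which admits fatty acids to mitochondria, stood at 53.6 ± 3.68 and 51.4 ± 3.13 CPM (log2 fold change -0.06, 95% interval -0.20 to 0.08). Pdk4 stood at 3.18 ± 0.24 and 2.99 ± 0.53 CPM, Angptl4 at 2.76 ± 0.63 and 2.97 ± 0.40 CPM, and the lipid droplet gene Plin2 at 38.6 ± 3.29 and 36.9 ± 4.25 CPM. The fatty acid transporter gene Cd36 stood at 33.1 ± 2.99 and 34.4 ± 5.55 CPM. All 5 overlapped between the diets. Acot1, an acyl-CoA thioesterase and PPARA target, had 1.18, 1.07, 1.1 and 0.689 CPM on 10% fat and 0.329, 0.614, 0.501 and 0.958 CPM on 44% fat. Its direction was downward (log2 fold change -0.78, unadjusted p 0.00424), and 1 library of each diet crossed into the other's range. Its neighbour in the family, Acot2, had a log2 fold change of 0.33.

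Lepr, the leptin receptor gene, had one of the higher log2 fold changes among hormone receptor genes, and Gcgr had the highest, at 0.545. Lepr stood at 1.49, 1.66, 1.53 and 2.07 CPM on 10% fat and 2.41, 2.6, 2.12 and 2.55 CPM on 44% fat. All libraries on 44% fat lay above all controls, with 44% fat replicate 3 and 10% fat replicate 4 almost touching. The log2 fold change was 0.54 (SE 0.18, 95% interval 0.17 to 0.92, unadjusted p 0.00622), and it did not pass the adjustment. Within the ID runs, values on 44% and 10% fat were 2.41 and 1.49 CPM, 2.6 and 1.66 CPM, and means of 2.34 and 1.8 CPM. Their order follows from the lack of overlap and adds no support. The other 10 hormone receptor genes tested included the adiponectin receptor genes Adipor1 (means 80.6 and 80.6 CPM) and Adipor2 (47.2 and 44.5 CPM) and the incretin receptor gene Gipr (10.1 and 10.3 CPM). Over all 11, 7 lay above 0 and 4 below, with a median of 0.01, and 1, Lepr, was higher without overlap, against 1.00% of all genes.

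Insulin and growth factor signalling was level in most members. Insr stood at 38.9 ± 1.17 and 38.2 ± 1.89 CPM (log2 fold change -0.03, 95% interval -0.17 to 0.12), Irs2 at 9.32 ± 0.53 and 9.58 ± 0.77 CPM, and Igf1 at 10.4 ± 2.58 and 9.22 ± 0.59 CPM. The wide control SD of Igf1 came from 10% fat replicate 4, at 14.1 CPM against 8.38 to 9.49 CPM in the other controls. Of 30 members tested, 10 lay above 0 and 20 below, with a median of -0.03, and intervals of 28 lay within 1.5-fold. Of the 2 members without overlap, 1 in each direction against 1.00% of all genes higher and 1.09% lower, Igfbp4, which binds insulin-like growth factors, had means of 12 and 9.86 CPM (log2 fold change -0.28, unadjusted p 0.0119). Mtor, the growth regulator kinase, stood at 364, 362, 361 and 360 CPM on 10% fat and 366, 370, 372 and 378 CPM on 44% fat, a difference without overlap of only 1.03-fold (log2 fold change 0.04, unadjusted p 0.252).

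No germ cell gene passed the adjustment. Spermatocyte genes split evenly, 11 above 0 and 12 below of 23 tested with a median of -0.01, and all 23 intervals lay within 1.5-fold. Sycp3, of the synaptonemal complex, stood at 136 ± 12.7 and 134 ± 4.87 CPM (log2 fold change -0.02, 95% interval -0.14 to 0.10). Of 18 round spermatid genes, 14 lay above 0 with a median of 0.04, and the acrosomal gene Acrv1 stood at 155 ± 14.1 and 163 ± 10.2 CPM.

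All 18 genes of elongating spermatids lay above 0, beside 48.6% of all genes, with a median of 0.05 and every interval within 1.5-fold. The DNA-packing genes Prm1 (1390 ± 127 and 1400 ± 68.5 CPM), Prm2 (means 3200 and 3410 CPM), Tnp1 (1700 and 1710 CPM) and Tnp2 (1990 and 2060 CPM) overlapped between the diets. Levels per library ran 0.08, 0.04, -0.08 and -0.14 on 10% fat and 0.04, 0.03, -0.02 and 0.05 on 44% fat. The common sign therefore went with 2 low controls: without 10% fat replicate 4 the list's median was -0.00, and without 10% fat replicate 3 it was 0.02. Sperm flagellum genes leaned the same way, 22 of 28 above 0 with a median of 0.02. Catsperg1, a subunit gene of the sperm calcium channel, had the highest value of that list (means 249 and 270 CPM, log2 fold change 0.12, unadjusted p 0.0271) and overlapped. Spag16 was the 1 member without overlap and went the other way, against 1.09% of all genes lower without overlap (means 146 and 141 CPM, log2 fold change -0.05).

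Differentiating spermatogonia were the 1 list of 37 whose levels did not overlap between the diets, and none of its members passed the adjustment. The 10 tested genes had levels of 0.03, 0.02, 0.05 and 0.08 on 10% fat and -0.09, -0.08, -0.01 and 0.01 on 44% fat. Every control lay above every library on 44% fat, the nearest pair being 10% fat replicate 2 and 44% fat replicate 4. Among single genes, 1.00% were higher and 1.09% lower without overlap, so 1 such list of 37 is little to go on. The summed CPM of the 10 genes overlapped, at 581 to 594 on 10% fat and 578 to 600 on 44% fat. Of the 10, 8 lay below 0 with a median of -0.07, and 1, Sohlh1, a transcription factor of spermatogonial differentiation, was lower without overlap, against 1.09% of all genes, at 2.33, 2.3, 2.48 and 2.66 CPM against 1.89, 1.52, 2.18 and 1.92 CPM (log2 fold change -0.37, unadjusted p 0.0229). Kit, the stem cell factor receptor that marks these cells, stood at 34.7 ± 4.43 and 35 ± 2.22 CPM (log2 fold change 0.02), and Stra8, induced by retinoic acid, had means of 7.75 and 7.36 CPM. The retinoid list leaned down in 14 of 18 members with a median of -0.04, and 1 member, Rbp4, was lower without overlap, against 1.09% of all genes. Rbp4, the retinol carrier gene, had means of 1.96 and 1.52 CPM (log2 fold change -0.38, unadjusted p 0.0486, and -0.22 without 10% fat replicate 2). Of 13 genes of undifferentiated spermatogonia, 5 lay above 0 and 8 below, with a median of -0.03. Zbtb16 stood at 6.42 ± 1.15 and 6.07 ± 1.18 CPM, and Ret, part of the receptor for the niche factor GDNF, at 1.63 ± 0.34 and 1.21 ± 0.22 CPM with overlap (log2 fold change -0.39, unadjusted p 0.0315). Gfra1, the other part of that receptor, had means of 9.22 and 9.63 CPM.

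Sertoli cell genes lay below 0 in 16 of 23 members with a median of -0.05, and 21 intervals lay within 1.5-fold. Fshr, the receptor for follicle-stimulating hormone, stood at 1.73 ± 0.21 and 1.65 ± 0.25 CPM, and Amh, which adult Sertoli cells make little of, at 0.86 ± 0.36 and 0.72 ± 0.18 CPM. The transcription factor genes Gata4 (means 22.1 and 20.4 CPM) and Wt1 (40.4 and 42.4 CPM) lay on either side of 0. Defb19, a defensin gene, was the 1 member lower without overlap, against 1.09% of all genes (35.9 ± 0.96 and 33.1 ± 1.20 CPM, log2 fold change -0.12, unadjusted p 0.208). Junction genes of the blood-testis barrier were level too, with 8 of 18 above 0, a median of -0.01 and all 18 intervals within 1.5-fold. Jam3 was the 1 junction gene without overlap, lower on 44% fat, against 1.09% of all genes (means 32.3 and 30 CPM, log2 fold change -0.11). Myoid and smooth muscle genes had a median of 0.05 (8 of 12 above 0), and endothelial genes one of 0.01 (8 of 12 above 0).

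No immune gene passed the adjustment. Macrophage genes lay below 0 in 11 of 14 members with a median of -0.15, and none had an unadjusted p under 0.05. Examples were the receptor gene Csf1r (means 13 and 11.6 CPM), the complement gene C1qa (6.5 and 5.65 CPM) and the haemoglobin scavenger gene Cd163 (2.62 and 2.16 CPM). Macrophage levels were 0.00, 0.22, 0.04 and -0.15 on 10% fat and -0.04, -0.12, -0.04 and 0.08 on 44% fat, and the highest was 10% fat replicate 2, without which the median was -0.05. Inflammatory signalling genes split 7 above and 8 below 0 among 15 tested with a median of -0.00, with Tgfb1 at means of 9.92 and 9.63 CPM and Nfkb1 at 13.2 and 13.7 CPM. Tlr2, a receptor of bacterial lipoproteins, was the 1 member higher without overlap (means 0.653 and 0.948 CPM, unadjusted p 0.0704), against 1.00% of all genes. Interferon response genes had a median of 0.08 (16 of 26 above 0) and antigen presentation genes one of 0.00 (11 of 21 above 0). Lymphocyte genes were scarce, with 6 of 10 tested, 4 of them above 0, a median of 0.05 and a summed level of 4.02 to 5.47 CPM on 10% fat and 4.01 to 5.66 CPM on 44% fat.

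No gene of oxidative phosphorylation passed the adjustment. Of 81 nuclear genes of oxidative phosphorylation subunits, 68 lay below 0 with a median of -0.06, while the 13 mitochondrially encoded ones had 9 above 0 and a median of 0.01. Uqcrfs1, the Rieske subunit gene of complex III, stood at 75.7, 78.3, 74.2 and 78.1 CPM on 10% fat and 65.3, 68.9, 71.3 and 71.9 CPM on 44% fat. It was the 1 nuclear member without overlap, against 1.09% of all genes lower without overlap (log2 fold change -0.14, SE 0.05, unadjusted p 0.00613). Levels of the nuclear list ran 0.15, 0.09, -0.04 and -0.07 on 10% fat and -0.06, -0.05, -0.04 and 0.02 on 44% fat. The high values were 10% fat replicates 1 and 2, and without replicate 1 the median was -0.02. Ribosomal protein genes had the same split of the controls, with levels of 0.16, 0.10, -0.06 and -0.14, and a median of -0.04 (60 of 78 below 0). Nnt, the mitochondrial transhydrogenase gene, of which C57BL/6J mice are known to lack several exons, stood at 60.9 ± 3.67 and 60.2 ± 1.64 CPM, a value that counts only what remains of the transcript.

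The remaining pathway lists had medians within 0.05 of 0. Cell cycle genes split 10 above and 13 below 0, with all 23 intervals within 1.5-fold. Clock genes had a median of 0.03 with 13 of 19 above 0, and apart from Bhlhe41 the lowest unadjusted p was that of Npas2, a partner of the clock protein BMAL1 (means 2.13 and 1.69 CPM, log2 fold change -0.35, unadjusted p 0.04, and -0.20 without 44% fat replicate 3). Genes of the piRNA pathway, which silences transposons in germ cells, had a median of 0.00. Among them Piwil4 had means of 0.677 and 0.419 CPM (log2 fold change -0.67, unadjusted p 0.0174), while Piwil1 and Mael, abundant in spermatocytes, had log2 fold changes of 0.06 and 0.01. Antioxidant genes lay below 0 in 22 of 27 members (median -0.04), heat shock genes in 11 of 16 (median -0.01), stress response genes of the endoplasmic reticulum in 15 of 20 (median -0.04), immediate early genes in 11 of 16 (median -0.03) and p53 and apoptosis genes in 11 of 18 (median -0.02). Cdkn1a, a p53 target that halts the cell cycle, had means of 9.05 and 7.8 CPM (log2 fold change -0.21, unadjusted p 0.0381). Collagen genes had a median of -0.01, with Col7a1, of anchoring fibrils, the 1 of 43 members without overlap, against 1.00% of all genes (means 2.15 and 2.92 CPM, log2 fold change 0.45, unadjusted p 0.0047, and 0.29 without 10% fat replicate 1).

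Transcripts of neighbouring tissues varied between libraries of 1 diet. Crisp1, a secretory protein gene of the epididymis, stood at 0.157, 13, 0 and 1.29 CPM on 10% fat and 0.192, 0.175, 0.0295 and 0.058 CPM on 44% fat. It was high in 10% fat replicate 2, the library with 119 CPM of Muc5b, and next highest in 10% fat replicate 4. Spink8, another epididymal gene, had 2.04 CPM in the same replicate 2 against 0.09 to 0.65 CPM in the other 7 libraries. Of 16 genes of epididymis and rete testis, 7 were tested, with 6 below 0 and a median of -0.17. Their summed level was 95.7 to 113 CPM on 10% fat and 94.6 to 97.5 CPM on 44% fat, most of it Aqp9 (means 88.6 and 87.7 CPM). Adipocyte levels ran from -0.64 to 0.32 on 10% fat and from -0.35 to 0.76 on 44% fat, with the adiponectin gene Adipoq at 4.52 ± 0.73 and 4.35 ± 0.32 CPM and a list median of 0.12 (9 of 12 above 0). Red blood cell levels ran from -0.31 to 0.26 and from -0.43 to 0.54, with a median of 0.09 (5 of 7 above 0).

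Zbed6, a transcription factor gene inside an intron of Zc3h11a on chromosome 1 (chr1:133655879-133660885 within chr1:133619871-133661380), was among the 7 genes that differed by 2-fold. It stood at 2.14, 4.02, 1.99 and 2.34 CPM on 10% fat and 12.6, 1.26, 6.61 and 2.73 CPM on 44% fat. The 44% fat group held both the highest and the lowest value of the 8, and the log2 fold change of 1.14 (SE 0.48, unadjusted p 0.025) became 0.41 without 44% fat replicate 1. Zc3h11a itself stood at 57.5 ± 3.16 and 61.3 ± 6.31 CPM, and reads of the 2 overlapping genes may not be separable.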

How the data were processed

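Testis polyA RNA was sequenced as 100 bp pairs aiming at 30 M (M, 1e+06) pairs each, per the labels' protocols. The deposited count table holds estimated counts per gene by the authors for 28861 genes, of which 27.9% of values are not whole, and the authors also deposited log2 values from a variance-stabilising transformation (7.67 to 19.3). Every listed gene has a count above 0 in at least 12 libraries, and 0 spike-in transcripts are listed. The submitters' processing notes name GRCm38 and DESeq2. No source used here names the aligner, the counting tool or the annotation.

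Estimated counts were rounded, filtered with filterByExpr on the 6 groups and scaled by TMM. Genes were tested by edgeR 4.0.16 in R 4.3.3 (glmQLFit and glmQLFTest) with 1 mean per group over all 23 libraries, with Benjamini-Hochberg adjustment over 22873 genes and a threshold of 0.05. SE and 95% intervals of log2 fold changes were derived from that test. The script was tested on simulated data. CPM are counts per 1e+06, and list levels use log2 CPM with a prior count of 2. Single-library precision is limited by totals of 21.9 to 38.4 M counts.

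Genes are named by rule: among official symbols averaging 1 CPM or more, the 5 with the smallest p per direction, called members of lists, and a set of genes whatever their p, of which some are not reported here. Other genes were named after their values were seen. The members of this comparison and the gene lists were chosen with earlier results of these data known. Replicates are numbered in accession order. Alternatives were DESeq2 1.42.0 with its own size factors, limma 3.58.1 on the deposited log2 values, other filters, fewer libraries, summed gene copies and ID runs in the sample titles as a covariate.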

Additional observations from a re-analysis of the deposited data

Results flagged for a closer look

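In groups of 4 libraries, 14 of 228 checked groups held 1 value far from the other 3 (Dixon's test of the gap to the nearest over the group's range). Chance flags about 1 in 20 groups.

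For genes, the values were these. Muc5b stood at 119 CPM in 10% fat replicate 2, against 4.82 to 5.23 CPM in the other controls, and at 6.58 CPM in 44% fat replicate 1, against 5.13 to 5.35 CPM. Crisp1 stood at 13 CPM in 10% fat replicate 2, against 0 to 1.29 CPM. Hsd3b6 was low in 10% fat replicate 4 at 58.6 CPM, against 93.2 to 100 CPM, and Pdk4 was high in the same library at 3.54 CPM, against 3.03 to 3.09 CPM. In 10% fat replicate 3, Hsd17b7 was high at 8.96 CPM, against 7.56 to 7.63 CPM, and Igfbp4 was low at 11 CPM, against 12.1 to 12.4 CPM. Zc3h11a was low in 10% fat replicate 1 at 52.8 CPM, against 58.7 to 59.7 CPM. On 44% fat, replicate 2 was low for Rbp4 at 1.26 CPM, against 1.56 to 1.62 CPM. The same library was high for the ribosomal gene Rpl5 at 12.1 CPM, against 10.5 to 10.7 CPM, and for the cytochrome oxidase gene Cox4i2 at 0.205 CPM, against 0.029 to 0.0548 CPM.

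For list levels, undifferentiated spermatogonia stood at -0.0235 in 10% fat replicate 1, against 0.0321 to 0.0404 in the other controls. In 10% fat replicate 3, insulin, IGF and mTOR signalling stood at -0.0602, against 0.0422 to 0.0575, and collagens at -0.136, against 0.0558 to 0.0643.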

How the results depend on the processing

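Fam205a2 and Fam205a3 passed as the 2 genes higher on 44% fat with other size factors, DESeq2, no filter on low counts, a filter at 1 CPM and ID run as a covariate, and limma on the deposited log2 values gave 3, with Gm13232. The count was 0 in the C57BL/6J libraries alone and, in alternatives chosen after seeing the data, 0 without 10% fat replicates 2 and 4, 0 with identical gene rows tested once, 1 with Fam205a2 and Fam205a3 summed, and 0 with either larger sum, most of which was other copies. Leaving out 1 library gave 0 to 2. No gene was lower in any of these fits. With other size factors the unadjusted split was 329 higher and 341 lower. No paired analysis was possible because the labels give no replicate numbers. The ID run, which holds both diets, entered as the covariate named above.

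Log2 fold changes that changed sign without 10% fat replicates 2 and 4 were Muc5b 0.125, Zbtb16 0.157, Sycp3 0.00184, Insr 0.00995, Igf1 0.0451, Irs2 -0.0183 and Adipoq 0.0473. With 1 library left out at a time, the ranges that crossed 0 were Muc5b -2.97 to 0.151, Star -0.194 to 0.116, Hsd3b6 -0.289 to 0.00969, Insl3 -0.0867 to 0.0022, Fshr -0.15 to 0.016, Amh -0.417 to 0.0922, Zbtb16 -0.186 to 0.0247, Kit -0.026 to 0.104, Sycp3 -0.0598 to 0.0303, Prm1 -0.0431 to 0.0527, Scd1 -0.125 to 0.371, Pdk4 -0.153 to 0.0289, Angptl4 -0.0125 to 0.264, Plin2 -0.13 to 6.23e-05, Insr -0.0482 to 0.00755, Igf1 -0.23 to 0.0183, Irs2 -0.0104 to 0.0762, Nnt -0.0393 to 0.0195, Car3 -0.043 to 1.37 and Adipoq -0.133 to 0.0557. Ranges of list medians included adipocytes -0.123 to 0.217, red blood cells -0.0854 to 0.295, lymphocytes -0.0385 to 0.162, epididymis and rete testis -0.231 to -0.0174, cholesterol synthesis -0.123 to -0.0599 and interferon response -0.00342 to 0.0747. Apart from Muc5b, the genes whose ranges crossed 0 had no unadjusted p under 0.05. The causes of these changes were not tested. Under settings other than leaving out 1 library, 590 of 601 gene values held their direction and side of the threshold, and 293 of 296 list medians stayed within the spread between replicates.

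With 4 libraries a diet, differences under 1.5-fold in genes under 10 CPM are often within the error, and genes under 1 CPM are not resolved at 2-fold in most cases.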

Other observations

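A pair of genes under the abundance limit for naming, described after their values were seen, had the smallest p values of symbols below 1 CPM that are named here, and neither passed the adjustment. Oprd1, the delta opioid receptor gene, stood at 0.366, 0.295, 0.489 and 0.459 CPM on 10% fat and 0.63, 0.877, 0.826 and 0.638 CPM on 44% fat. All 4 libraries on 44% fat were above the controls (log2 fold change 0.91, SE 0.22, unadjusted p 2.87e-04). Dio1, which activates thyroid hormone, stood at 0.837, 1.29, 1.93 and 1.06 CPM on 10% fat and 0.384, 0.936, 0.708 and 0.522 CPM on 44% fat. Only 44% fat replicate 2 reached into the control range (log2 fold change -1.01, SE 0.26, unadjusted p 7.05e-04).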
